A study of Mus musculus with 60 samples.

Results

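Cytochrome P450 genes of families 1 to 4 were followed through 32 h of culture of primary mouse hepatocytes. The members were all genes whose single annotated symbol is Cyp, a digit from 1 to 4, a letter and a number, including Cyp4a12a with its closing letter and leaving out the pseudogene Cyp4f41-ps. Where a gene had several probe sets, the one with the highest mean over all arrays was used. This gave 55 genes in 19 subfamilies, of 18194 genes measured. Of the 55, 21 were dim, with a mean log2 intensity over all arrays below 4.91, the median of all probe set means, and 10 were above their array's 40th percentile on fewer than 2 arrays. None was left out by an intensity filter.

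The cells were hepatocytes of male C57BL/6N mice aged 8 to 12 weeks, plated at sub-confluence on collagen I, and each experiment used the cells of 1 animal or a pool of at most 3. The groups were IL-6 plus HGF, HGF alone, IL-6 alone and no stimulus, with hepatocyte growth factor and interleukin 6 at 40 ng/ml each, sampled at 0.5 h, at 2 and 4 h, and then at 8, 16, 24 and 32 h. A starting group without stimulus stood at 0 h. All groups, the unstimulated one included, attached in medium with serum, insulin and dexamethasone, and were then kept for 24 h in medium with dexamethasone (a glucocorticoid) and without serum before stimulation. The 0 h samples are therefore cells already in culture, and no allele or transgene separates the groups. RNA was hybridised to 60 Affymetrix mouse arrays, 2 for each of 28 groups and 4 for the group at 0 h.

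Cytochrome P450 enzymes are haem proteins of the endoplasmic reticulum that oxidise drugs, steroids, fatty acids and bile acids, using electrons passed on by a reductase or by cytochrome b5. Families 1 to 3 hold most enzymes of drug and toxin metabolism, and family 4 holds hydroxylases of fatty acids. Transcription of many of them in liver is driven by ligand-activated receptors (AhR for subfamily 1a, CAR for 2b, PXR for 3a and PPARalpha for 4a) together with hepatocyte factors such as HNF4A. Interleukin 6 drives the hepatic acute-phase response, during which P450 genes are known to fall, and HGF is a mitogen of hepatocytes.

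Promoter sequences from RefSeq (build GRCm38.p6, 250 bases before to 50 bases after the first listed start) matched 43 of the 55 genes. Shown are 3 genes with large falls under both stimuli and Cyp3a13, which rose under HGF. Capitals mark matches on either strand to 6 letter patterns: TTCNNNGAA (STAT), AGGTCA (nuclear receptor half-site), GTTAAT (HNF1 half-site), CAAAGTCCA (HNF4), TTGCNNAA (C/EBP) and GCGTG (AhR core).
Cyp2b10, chr7:25897408-25897707, plus strand: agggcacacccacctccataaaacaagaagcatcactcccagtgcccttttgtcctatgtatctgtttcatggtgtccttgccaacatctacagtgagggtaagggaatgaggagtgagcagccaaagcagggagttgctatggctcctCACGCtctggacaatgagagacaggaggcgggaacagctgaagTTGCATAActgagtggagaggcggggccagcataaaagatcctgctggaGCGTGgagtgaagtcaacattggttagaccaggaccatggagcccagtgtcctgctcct
Cyp3a11, chr5:145879805-145880104, minus strand: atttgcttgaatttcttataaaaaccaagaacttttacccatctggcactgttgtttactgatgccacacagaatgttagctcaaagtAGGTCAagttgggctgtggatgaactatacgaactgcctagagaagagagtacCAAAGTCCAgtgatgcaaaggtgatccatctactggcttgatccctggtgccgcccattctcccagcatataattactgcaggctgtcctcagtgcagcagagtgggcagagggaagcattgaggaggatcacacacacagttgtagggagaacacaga
Cyp2c68, chr19:39741052-39741351, minus strand: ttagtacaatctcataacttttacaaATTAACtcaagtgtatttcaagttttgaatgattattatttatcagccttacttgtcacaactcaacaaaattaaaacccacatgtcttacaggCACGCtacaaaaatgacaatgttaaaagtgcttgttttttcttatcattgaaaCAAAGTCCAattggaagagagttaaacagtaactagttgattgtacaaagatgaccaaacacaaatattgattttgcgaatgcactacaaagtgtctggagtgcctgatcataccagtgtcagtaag
Cyp3a13, chr5:137921570-137921869, minus strand: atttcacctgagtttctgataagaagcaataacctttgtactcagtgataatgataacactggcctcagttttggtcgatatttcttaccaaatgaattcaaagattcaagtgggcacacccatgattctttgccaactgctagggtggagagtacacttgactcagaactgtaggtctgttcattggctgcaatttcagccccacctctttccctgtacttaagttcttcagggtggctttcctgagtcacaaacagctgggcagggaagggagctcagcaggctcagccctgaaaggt
CAAAGTCCA stands in the Cyp3a11 and Cyp2c68 windows. It was found in 5 of the 43 member promoters (11.63%), namely those of Cyp3a11, Cyp3a16, Cyp2c65, Cyp2c68 and Cyp2c70, against 0.4773% of 27025 mouse promoters of the same length. AGGTCA was in 27.91% of member promoters and in 16.04% of all promoters, TTGCNNAA in 18.6% and 10.75%, TTCNNNGAA in 6.977% and 8.466%, GTTAAT in 4.651% and 7.201%, and GCGTG in 25.58% and 32.46%. The Cyp3a13 window holds none of the 6 patterns. Of the 5 genes with CAAAGTCCA, 3 were among the genes lower under IL-6 plus HGF, as were 26 of all 43 members with a promoter. The 2 that were not, Cyp3a16 and Cyp2c65, were dim. These are letter matches in 1 window per gene, and genes of 1 subfamily can share sequence.

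Array medians lay between 4.88 and 4.97 on the log2 scale and no array was a copy of another. Hepatocyte markers were high on all arrays, with a summed level of 15.3 to 16.4 at 8 to 32 h under the stimuli and 15.6 to 16.3 without a stimulus, and all 7 above the median of probe sets. Of the other cell classes, the 5 bile duct markers measured summed to 8.78 to 9.42 under IL-6 plus HGF, 8.90 to 10.1 under HGF, 8.46 to 9.54 under IL-6 and 8.55 to 9.17 in unstimulated cells at those hours, with 2 of the 5 dim. Their part in the P450 results was not tested. The spiked dap transcript, a control of RNA labelling, had a 3′ minus 5′ difference of 2.46 to 2.86 on stimulated arrays of 0.5 to 4 h and of 1.18 to 1.52 on the 10 unstimulated arrays of 0 to 4 h. From 8 h on the ranges overlapped, with up to 3.11 on stimulated arrays and 2.47 to 2.80 on unstimulated ones, apart from replicate 1 of IL-6 at 24 h (3.99). A second spike, bioB, read 5.38 to 5.93 under IL-6 plus HGF, 5.94 to 6.98 under HGF and 5.51 to 7.05 under IL-6 at 8 to 32 h. The unstimulated arrays of those hours read 8.13 to 8.40, above all stimulated ones, while bioC overlapped between stimulated and unstimulated arrays. The part of bioB in the results was not tested. Directions were therefore read from the mean of the hourly differences at 8, 16, 24 and 32 h.

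Without any stimulus, most of these P450 genes fell during culture. At 32 h, 39 of the 55 genes were lower than at 0 h and 1, Cyp4v3, was higher (limma, adjusted p below 0.05), against 56.7% of all genes that differed in either direction, 28.5% lower and 28.2% higher. The median member difference was −0.60 on the log2 scale and the median of all genes −0.08. At least a 4-fold loss was seen for 20 members and at least an 8-fold loss for 12, and the share of all genes with such losses was not counted. The 32 h and 0 h arrays differ in their labelling control, and the share of this loss that comes with it cannot be told apart.

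Within 8 to 32 h, where the labelling control was alike, 33 of 55 genes were lower at 24 and 32 h than at 8 and 16 h and 1 was higher, against 50.4% of all genes in either direction, 25.4% lower and 25% higher. At least a 2-fold loss over that interval was seen for 22 members, and the share of all genes with such a loss was not counted. Cyp2e1, the ethanol-oxidising enzyme of pericentral hepatocytes, read 7.74 and 7.75 at 32 h, against 12.06, 11.99, 12.07 and 12.01 at 0 h. This was a 19.5-fold loss with no overlap (difference −4.29, limma adjusted p = 2.73e-44). From 0 h to 32 h Cyp2d26 lost 24.6-fold, Cyp2j5, an arachidonic acid epoxygenase, 20.4-fold, and Cyp3a25 20.4-fold. Cyp4a14, a fatty acid hydroxylase induced by PPARalpha, lost 15.5-fold from 0 h, Cyp3a11, the main drug-metabolising enzyme of the mouse 3a subfamily, 14.2-fold and the periportal Cyp2f2 12.9-fold. These losses from 0 h span the difference in the labelling control. From 8 and 16 h to 24 and 32 h, Cyp2e1 lost 4.90-fold, Cyp2d26 5.29-fold, Cyp2j5 4.99-fold and Cyp3a25 4.14-fold. Over those hours Cyp4a14 lost 4.61-fold, Cyp3a11 4.85-fold, Cyp2f2 4.10-fold, Cyp2c50 4.45-fold and Cyp2c54 3.92-fold.

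Other members differed less between 32 h and 0 h, and some of them still passed as lower. Cyp3a13 read 10.83 and 10.92 at 32 h, against 11.07, 11.03, 11.16 and 11.07 at 0 h, and was 1.16-fold lower (adjusted p = 3.58e-05). Cyp2b10, the phenobarbital-inducible target of CAR, was 1.85-fold lower at 32 h (adjusted p = 2.25e-12). Cyp4b1 differed by −0.04 between 32 h and 0 h (adjusted p = 0.751). Cyp4v3, a fatty acid hydroxylase whose human counterpart is CYP4V2, read 10.50 and 10.46 at 32 h and 10.25, 10.13, 10.31 and 10.35 at 0 h, and was 1.16-fold higher. Cyp4f16 was the gene that was higher at 24 and 32 h than at 8 and 16 h, by 0.25 (adjusted p = 0.000651), and it differed from 0 h by −0.05 (adjusted p = 0.614).

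**Figure D1:**
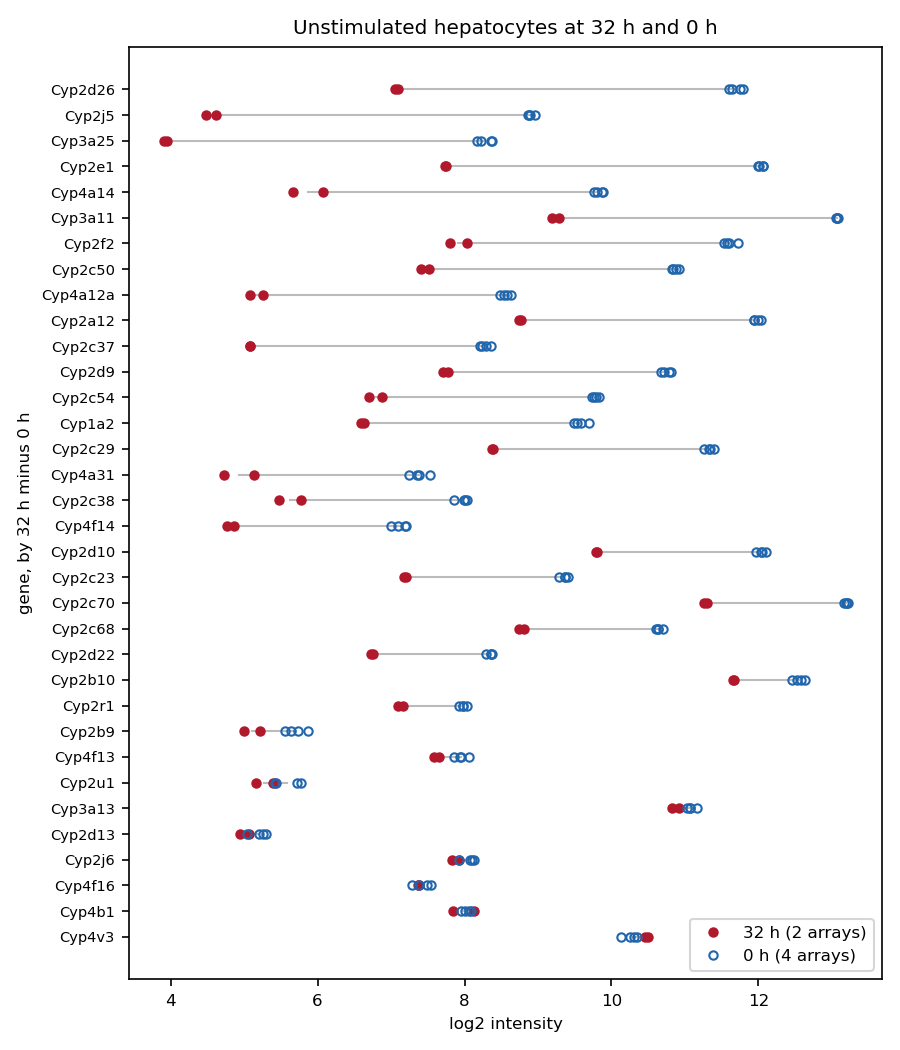
Log2 intensity (horizontal axis) of the 34 members that were not dim, on the 2 unstimulated arrays at 32 h (filled) and the 4 at 0 h (open), with a line between the group means. Cyp2d26 has the largest loss (24.6-fold) and Cyp4v3 stands higher at 32 h.

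Under each stimulus, a large part of the family was lower than in unstimulated cells. Over 8 to 32 h, IL-6 plus HGF gave 33 lower and 1 higher of 55 genes, against 42.6% of all genes called in either direction, 21.3% lower and 21.4% higher. HGF gave 29 lower and 3 higher, against 39.8% in either direction, 20.1% lower and 19.7% higher. IL-6 gave 28 lower and 1 higher, against 31.9% in either direction, 17.7% lower and 14.2% higher, and 26 lower without replicate 1 at 24 h. The median member difference was −0.19 under IL-6 plus HGF, −0.17 under HGF and −0.14 under IL-6, where the medians of all genes were 0.0016, 0.010 and −0.0024. All 3 comparisons share the unstimulated arrays, which the bioB spike set apart at these hours. The stimulus and a difference between arrays that goes with that spike cannot be told apart here. Among the 34 members that were not dim, 29 were lower under IL-6 plus HGF, 26 under HGF and 27 under IL-6. Among the 21 dim ones the counts were 4, 3 and 1. The share of lower genes among all dim genes, or among all others, was not counted. Brightness and membership in the family therefore cannot be told apart in these counts. The arrays of the stimulus lay below those of unstimulated cells at all 4 hours in 19 of the genes lower under IL-6 plus HGF, 16 under HGF and 16 under IL-6. How many of all genes were apart in this way was not counted, so these counts have no background beside them.

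Of the 7 hepatocyte markers, 6 were lower and 1 higher under IL-6 plus HGF, 6 lower and none higher under HGF, and 4 lower and 1 higher under IL-6, with median differences of −0.43, −0.25 and −0.15. Their part in the P450 falls was not tested, and in bulk RNA fewer hepatocytes and less P450 RNA per hepatocyte cannot be told apart. Of the 7 markers of sinusoidal endothelium, 4, 6 and none were lower and none, none and 1 higher under the same stimuli. The 7 Kupffer cell markers gave 1, 2 and 1 lower and none, none and 1 higher, and the 8 stellate cell markers none, 1 and none lower and 1, none and 3 higher. The 5 bile duct markers gave 1, none and none lower and 2, 2 and 1 higher, and of the 5 blood cell markers 1 was lower under HGF. Beside these marker counts, 21.3%, 20.1% and 17.7% of all genes were lower and 21.4%, 19.7% and 14.2% higher.

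**Figure D2:**
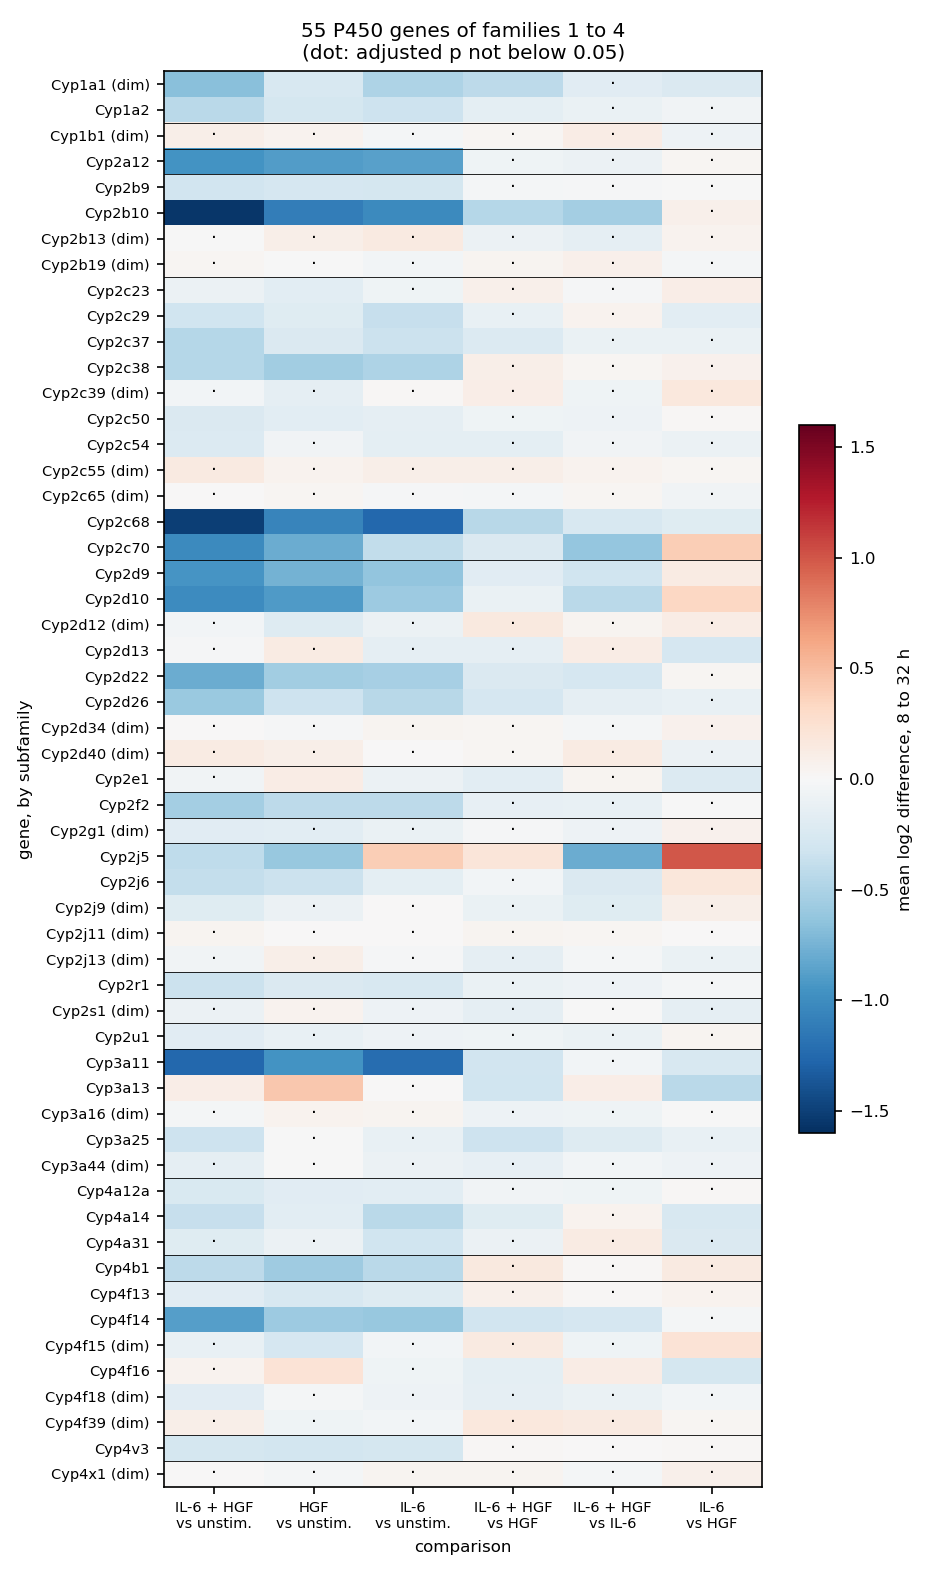
Mean log2 difference over 8 to 32 h (colour, blue lower and red higher) of all 55 members, grouped by subfamily, in 6 comparisons; a dot marks an adjusted p not below 0.05. The darkest cells are Cyp2b10, Cyp2c68 and Cyp3a11 under IL-6 plus HGF, and Cyp2j5 is red under IL-6 against HGF.

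The subfamily 2b held the largest fall. At 32 h Cyp2b10 read 9.09 and 9.13 under IL-6 plus HGF, 10.10 and 9.65 under HGF and 10.09 and 10.18 under IL-6, against 11.65 and 11.67 in unstimulated cells. All stimulated arrays lay below both unstimulated ones, and the arrays of the combination lay below those of either single stimulus. Its mean over 8 to 32 h was 2.95-fold lower under IL-6 plus HGF (difference −1.56 ± 0.05, SE, limma adjusted p = 4.62e-30). It was 2.15-fold lower under HGF and 2.02-fold lower under IL-6. The 2 other probe sets of Cyp2b10 differed by −1.42 and −1.74 under the combination. Its probe sets ending in s_at may also read near-identical genes. Cyp2b9 was lower by −0.31, −0.27 and −0.28 under the combination, HGF and IL-6, and the dim Cyp2b13 and Cyp2b19 did not pass under any of them.

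In subfamily 3a, which holds PXR-driven drug-metabolising enzymes, Cyp3a11 fell and Cyp3a13 rose under HGF and under IL-6 plus HGF. At 24 h Cyp3a11 read 9.23 and 9.29 under IL-6 plus HGF, 9.80 and 9.40 under HGF and 9.44 and 9.44 under IL-6, against 11.06 and 11.38 in unstimulated cells. Every stimulated array was below both unstimulated arrays at each of the 4 hours. Over 8 to 32 h it was 2.40-fold lower under IL-6 plus HGF (−1.26 ± 0.05, adjusted p = 1.29e-28), 1.94-fold lower under HGF and 2.32-fold lower under IL-6.

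Cyp3a13 rose under HGF. At 16 h it read 11.25 and 11.27 under IL-6 plus HGF, 11.66 and 11.64 under HGF and 11.13 and 11.22 under IL-6, against 11.06 and 11.15 in unstimulated cells. The HGF arrays were above every other array of their hour, at 16 h as at 24 and 32 h. Over 8 to 32 h it was 1.35-fold higher under HGF (0.43 ± 0.02, adjusted p = 4.02e-20) and 1.08-fold higher under IL-6 plus HGF, while under IL-6 the difference was 0.0019 ± 0.02 (adjusted p = 0.973). Cyp3a25 was lower under IL-6 plus HGF (−0.33, adjusted p = 3.61e-05) and did not pass under HGF or IL-6, and the dim Cyp3a16 and Cyp3a44 did not pass under any stimulus.

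Subfamily 2c, with 11 members the largest, had 8 lower under IL-6 plus HGF, 7 under HGF and 7 under IL-6, and none higher. At 24 h Cyp2c68 read 7.95 and 7.96 under IL-6 plus HGF, 8.38 and 8.07 under HGF and 8.20 and 8.40 under IL-6, against 9.81 and 9.98 in unstimulated cells. The stimulated arrays were more than 1 log2 unit below the unstimulated ones. Its mean fall was 2.84-fold under IL-6 plus HGF, 2.09-fold under HGF and 2.38-fold under IL-6. Cyp2c70, which makes the muricholic acids of mouse bile, read 9.31 and 9.35 under IL-6 plus HGF at 32 h, 10.47 and 9.63 under HGF and 10.72 and 10.43 under IL-6, against 11.31 and 11.25 in unstimulated cells. It was 2.02-fold lower under IL-6 plus HGF, 1.73-fold under HGF and 1.32-fold under IL-6. Cyp2c29, an arachidonic acid epoxygenase, was lower by −0.31, −0.20 and −0.37 under IL-6 plus HGF, HGF and IL-6. Cyp2c38 read 6.07 and 6.30 under IL-6 plus HGF at 24 h, 5.97 and 5.83 under HGF and 6.12 and 5.81 under IL-6, against 6.88 and 6.72 in unstimulated cells. Its differences of −0.46, −0.55 and −0.49 were alike in size.

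Subfamily 2d had 4 of 8 members lower under IL-6 plus HGF, 5 under HGF and 4 under IL-6. Cyp2d10 read 9.37 and 9.44 under IL-6 plus HGF at 24 h, 9.56 and 9.26 under HGF and 10.14 and 10.10 under IL-6, against 10.75 and 10.87 in unstimulated cells. The IL-6 arrays lay between the other stimuli and the unstimulated cells. As a mean over 8 to 32 h it was 2.01-fold lower under IL-6 plus HGF, 1.87-fold under HGF and 1.49-fold under IL-6. Cyp2d9, a testosterone hydroxylase of male liver, read 7.80 and 7.65 under IL-6 plus HGF at 24 h, 7.96 and 7.60 under HGF and 8.28 and 8.26 under IL-6, against 8.80 and 8.95 in unstimulated cells. It was 1.92-fold, 1.70-fold and 1.54-fold lower in the same order, and Cyp2d22 1.73-fold, 1.47-fold and 1.44-fold.

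The single member of subfamily 2a, Cyp2a12, a bile acid hydroxylase, read 8.59 and 8.74 under IL-6 plus HGF at 24 h, 8.59 and 8.27 under HGF and 8.83 and 8.86 under IL-6, against 9.75 and 9.83 in unstimulated cells. Its falls of 1.94-fold, 1.86-fold and 1.82-fold over 8 to 32 h were close to each other. A probe set shared by Cyp2a5, the coumarin hydroxylase, and Cyp2a4 belongs to no member because it carries 2 symbols. It averaged 7.44 ± 0.06 under IL-6 plus HGF, 8.89 ± 0.07 under HGF and 8.29 ± 0.05 under IL-6, against 11.49 ± 0.13 in unstimulated cells at 24 h (SD, n = 2 each). Its mean over 8 to 32 h differed by −3.23, −2.24 and −2.53 from unstimulated cells, which exceeds the fall of every member, and the 2 genes cannot be told apart. In unstimulated cells it averaged 11.78 at 16 h, against 10.03 at 0 h, where most members fell with time.

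Cyp2j5 was the member with the largest difference between IL-6 and HGF. At 24 h it read 5.87 and 5.49 under IL-6 plus HGF, 5.37 and 5.40 under HGF and 7.30 and 7.15 under IL-6, against 6.51 and 6.49 in unstimulated cells. The IL-6 arrays were above and the HGF arrays below the unstimulated ones, with no overlap. At 16 h the IL-6 arrays (7.40 and 7.67) spanned the unstimulated ones (7.50 and 7.57), and at 32 h they were above them again (5.48 and 5.46, against 4.48 and 4.61). The hourly difference under IL-6 was −0.09 at 8 h (adjusted p = 0.745) and −0.0015 at 16 h (adjusted p = 0.997), and 0.73 at 24 h and 0.93 at 32 h, so the rise was at the last 2 hours. In the mean over all 4 hours it was 1.33-fold lower under IL-6 plus HGF (−0.41), 1.52-fold lower under HGF (−0.61) and 1.31-fold higher under IL-6 (0.39 ± 0.05, adjusted p = 5.17e-08). A second, dim probe set of Cyp2j5 differed by −0.20, −0.28 and 0.21. Cyp2j6 was lower under IL-6 plus HGF (−0.38), HGF (−0.34) and IL-6 (−0.15), and its second probe set fell by more than its first (−0.80, −0.71 and −0.31).

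**Figure D3:**
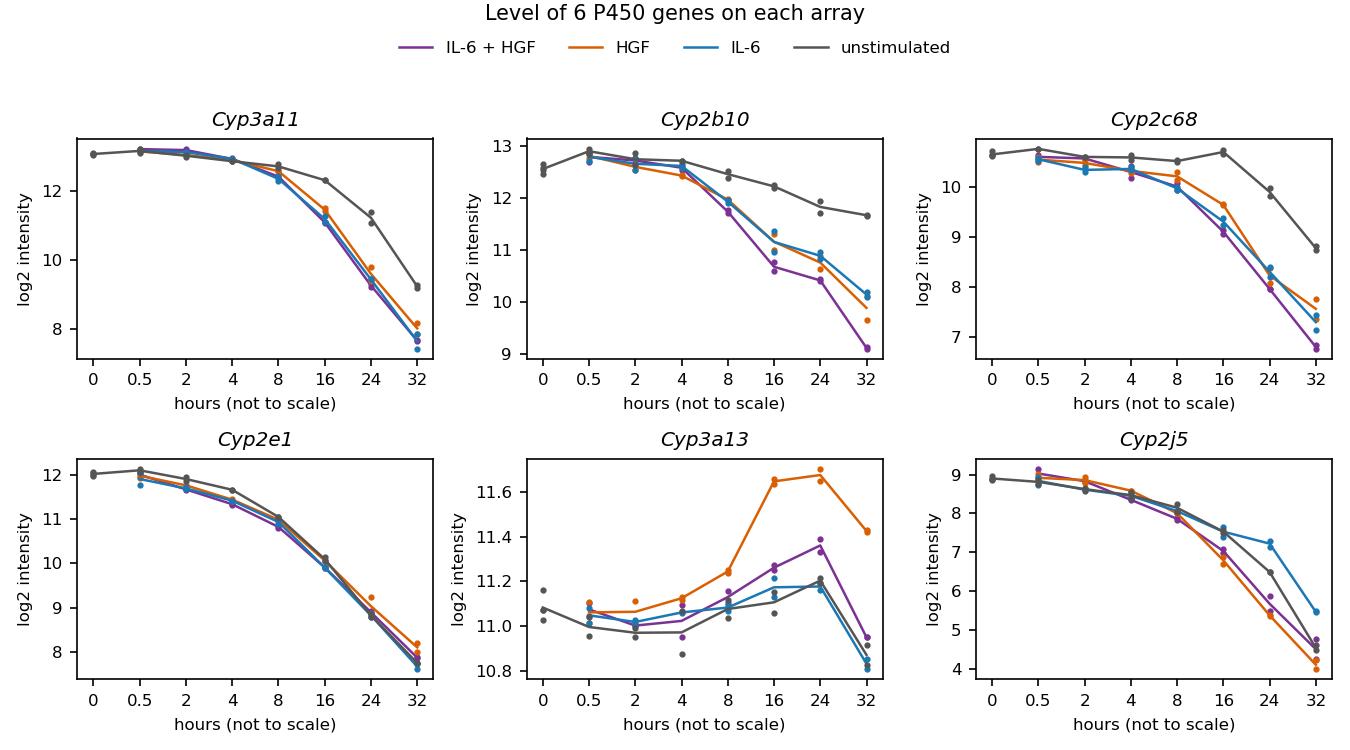
Log2 intensity (vertical axes, each panel with its own scale) against hours (ordered, not to scale) for 6 members; points are arrays and lines join group means in IL-6 plus HGF, HGF, IL-6 and unstimulated cells. Cyp3a11, Cyp2b10 and Cyp2c68 part from the unstimulated cells from 8 h on, Cyp2e1 falls in all 4 arms and is highest under HGF at 32 h, Cyp3a13 is highest under HGF, and Cyp2j5 is highest under IL-6 at 24 and 32 h.

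Cyp2e1 was far below its 0 h level at 32 h in every arm, and at that hour both HGF arrays were above all others. At 32 h it read 7.86 and 7.87 under IL-6 plus HGF, 7.99 and 8.21 under HGF and 7.72 and 7.61 under IL-6, against 7.74 and 7.75 in unstimulated cells. The mean differences over 8 to 32 h were −0.06 ± 0.04 (adjusted p = 0.218), 0.12 ± 0.04 (adjusted p = 0.00585) and −0.10 ± 0.04 (adjusted p = 0.0294). Without replicate 1 of HGF at 24 h the HGF value was 0.07 and did not pass (adjusted p = 0.0816). The IL-6 call was lost when any 1 of 7 arrays was left out, replicate 1 at 24 h among them.

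Subfamily 1a, the targets of AhR, was lower as well. Cyp1a2 read 6.01 and 6.07 under IL-6 plus HGF at 32 h, 6.40 and 6.41 under HGF and 6.37 and 5.99 under IL-6, against 6.59 and 6.64 in unstimulated cells. Its falls over 8 to 32 h were 1.35-fold, 1.21-fold and 1.26-fold. The dim Cyp1a1 read 4.55 and 4.64 under IL-6 plus HGF at 16 h, 4.69 and 4.73 under HGF and 4.65 and 4.50 under IL-6, against 5.50 and 5.47 in unstimulated cells. It was lower by −0.67 under IL-6 plus HGF and −0.49 under IL-6, while its HGF call (−0.25, adjusted p = 0.0187) was lost when any 1 of 4 arrays was left out. Cyp1b1, also dim, did not pass in any of these comparisons, with differences of 0.09, 0.05 and −0.03.

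In family 4, 7 of 12 members were lower under each of the 3 stimuli, and 1, Cyp4f16, was higher under HGF. Cyp4f14, which hydroxylates leukotriene B4, read 4.20 and 4.38 under IL-6 plus HGF at 24 h, 4.82 and 4.74 under HGF and 4.89 and 4.50 under IL-6, against 5.58 and 5.67 in unstimulated cells. It was 1.85-fold, 1.49-fold and 1.53-fold lower over 8 to 32 h. Cyp4a14 read 7.75 and 7.69 under IL-6 plus HGF at 16 h, 7.89 and 7.95 under HGF and 7.67 and 7.60 under IL-6, against 8.01 and 8.16 in unstimulated cells. It was lower by −0.37 under IL-6 plus HGF and −0.43 under IL-6. Under HGF it differed by −0.17, a call lost when any 1 of 4 arrays was left out (adjusted p up to 0.173). A probe set shared by Cyp4a31 and Cyp4a10 differed by −0.36, −0.09 and −0.35. Cyp4b1, known for bioactivating 4-ipomeanol, read 6.95 and 7.13 under IL-6 plus HGF at 32 h, 7.24 and 6.70 under HGF and 7.26 and 7.23 under IL-6, against 8.12 and 7.85 in unstimulated cells. It was lower by −0.41, −0.57 and −0.43 over 8 to 32 h, and Cyp4v3 by −0.28, −0.30 and −0.28. The 0.21 rise of Cyp4f16 under HGF was not seen on its second probe set, which differed by −0.0012 ± 0.06.

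Of the remaining single-member subfamilies, Cyp2f2 read 9.44 and 9.48 under IL-6 plus HGF at 16 h, 9.57 and 9.69 under HGF and 9.48 and 9.49 under IL-6, against 10.05 and 9.95 in unstimulated cells. It was lower by −0.54, −0.42 and −0.42 under IL-6 plus HGF, HGF and IL-6, and Cyp2r1, the vitamin D hydroxylase, by −0.34, −0.23 and −0.26. Cyp2s1 and Cyp4x1, both dim, did not pass under any stimulus.

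The number of lower members was highest at 16 h. At 8 h alone 19 members (34.5%) were lower under IL-6 plus HGF, against 15.3% of all genes. Under HGF there were 9 (16.4%), against 11.8%, and under IL-6 11 (20%), against 8.35%. At 16 h alone 29 members were lower under IL-6 plus HGF, against 15% of all genes, 24 under HGF, against 14.6%, and 26 under IL-6, against 10.7%. The counts were 18, 23 and 17 at 24 h, against 13.7%, 13.5% and 9.35% of all genes, and 24, 15 and 21 at 32 h, against 14.2%, 11.8% and 11.3%. At 0.5 h alone 4, 5 and 7 members were lower. These were 7.27%, 9.09% and 12.7% of members, near the 8.82%, 6.52% and 8.1% of all genes. Cyp2d26 read 10.55 and 10.45 under IL-6 plus HGF at 4 h, 10.53 and 10.58 under HGF and 10.62 and 10.62 under IL-6, against 11.46 and 11.42 in unstimulated cells. Its early differences were the largest of all members, by −0.94 under IL-6 plus HGF, −0.88 under HGF and −0.82 under IL-6 at 4 h, followed by −0.24 under the combination at 8 h. The dap control differed between stimulated and unstimulated arrays at 0.5 to 4 h and not at 8 h, and stimulus and labelling cannot be told apart at the early hours. An F-test over all 7 hours, which has no direction and includes those early hours, called 39 members under IL-6 plus HGF, 31 under HGF and 35 under IL-6. These were 70.9%, 56.4% and 63.6% of members, against 54.9%, 50.1% and 44% of all genes. The HGF share was near the background.

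**Figure D4:**
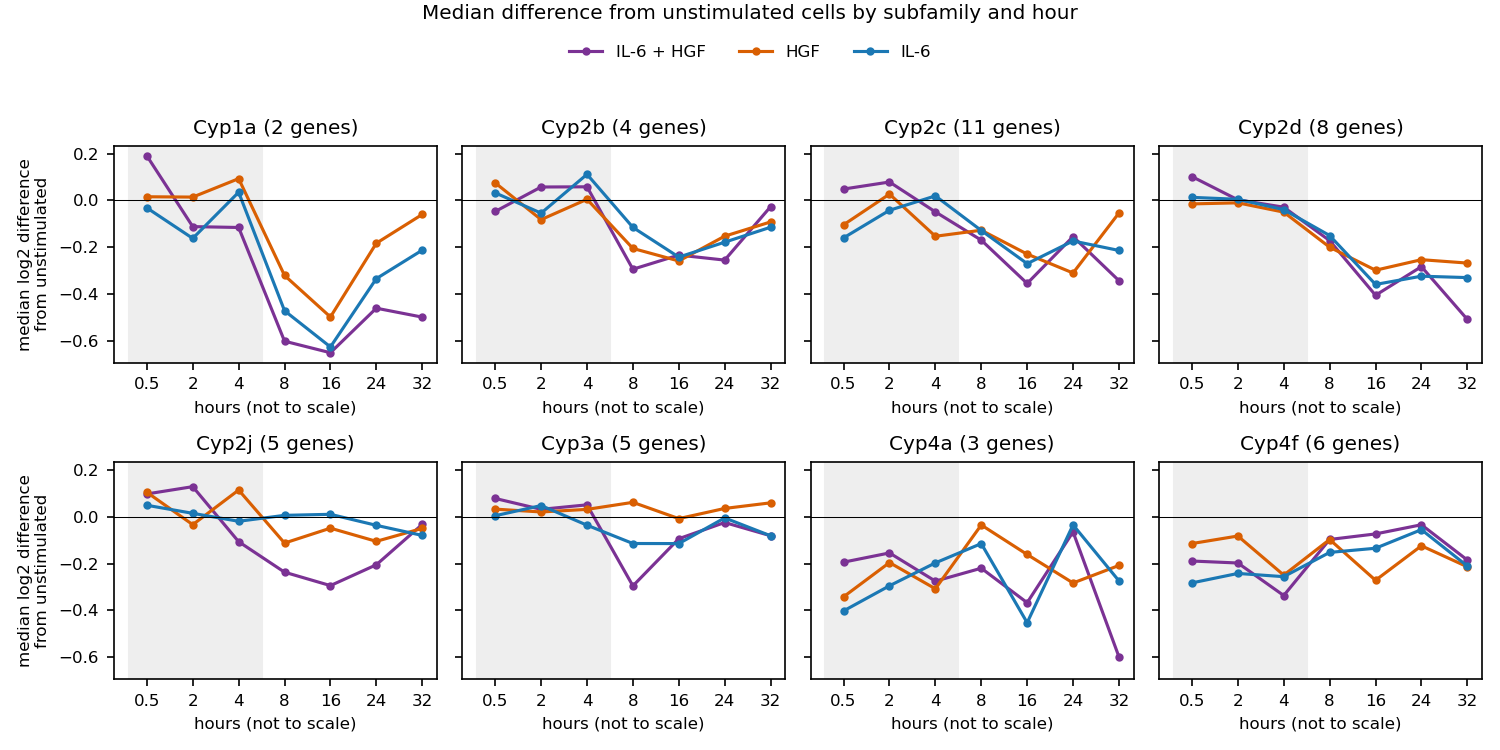
Median log2 difference from unstimulated cells of the same hour (vertical axis) in the 8 subfamilies named, against hours (ordered, not to scale), under IL-6 plus HGF, HGF and IL-6; the shaded hours, 0.5 to 4 h, are those at which the labelling control differed. Subfamilies 1a, 2b, 2c, 2d, 4a and 4f lie below 0 from 8 h on under each stimulus, and the 3a median stays within 0.3 of 0.

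With IL-6 added to HGF, more members were lower than higher. The bioB ranges of IL-6 plus HGF and of HGF did not overlap at these hours either, and the part of this was not tested. Against HGF alone, IL-6 plus HGF gave 17 lower and 1 higher, against 26.3% of all genes in either direction, 14% lower and 12.3% higher. The falls of Cyp2b10 (−0.46), Cyp2c68 (−0.44), Cyp3a25 (−0.33), Cyp3a13 (−0.32), Cyp4f14 (−0.31) and Cyp3a11 (−0.30) were the largest among the members that were not dim, and Cyp2j5 was the one higher (0.20, adjusted p = 0.00382). Against IL-6 alone, IL-6 plus HGF gave 11 lower and 2 higher. In either direction this was 23.6% of members, against 25.6% of all genes, a share near the background. By direction, 20% of members were lower, against 12.1% of all genes, and 3.64% higher, against 13.6%. Cyp2j5 (−0.80), Cyp2c70 (−0.62), Cyp2b10 (−0.54) and Cyp2d10 (−0.43) fell most, and Cyp3a13 (0.11) and Cyp4f16 (0.12) were higher. The Cyp4f16 call was lost when any 1 of 8 arrays was left out, replicate 1 of IL-6 at 24 h among them (adjusted p = 0.0624 without it). The second Cyp4f16 probe set differed from unstimulated cells by −0.07 under IL-6 plus HGF and −0.02 under IL-6. Cyp3a11 did not pass against IL-6 alone (−0.05 ± 0.05, adjusted p = 0.518).

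IL-6 and HGF differed from each other in 16 members, 7 higher and 9 lower under IL-6, against 34% of all genes in either direction, 15.3% higher and 18.7% lower, a share of members near the background. Cyp2j5 was 2.00-fold higher under IL-6 than under HGF (1.00 ± 0.05, adjusted p = 5.91e-21). Cyp2c70 (0.39), Cyp2d10 (0.33), the dim Cyp4f15 (0.21), Cyp2j6 (0.19) and Cyp2d9 (0.13) were also higher under IL-6. Without replicate 2 of HGF at 24 h the Cyp2d9 difference was 0.09 (adjusted p = 0.0194). Cyp3a13 (−0.43), Cyp4f16 (−0.28), Cyp2d13 (−0.27), Cyp3a11 (−0.26), Cyp4a14 (−0.25), the dim Cyp1a1 (−0.24), Cyp2e1 (−0.21), Cyp2c68 (−0.19) and Cyp2c29 (−0.17) were lower under IL-6 than under HGF. The second Cyp4f16 probe set differed from unstimulated cells by −0.02 under IL-6 and −0.0012 under HGF. That of Cyp2d13, which is dim, differed by −0.08 and 0.007.

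The fall under both stimuli was smaller than the sum of the single falls for many members. The departure from additivity (IL-6 plus HGF minus HGF minus IL-6 plus unstimulated, log2) was positive in 16 members and negative in 1, against 15% of all genes in either direction, 9.01% positive and 5.99% negative. Both single differences and the departure use the unstimulated arrays, which the bioB spike set apart at these hours. A higher reading on those arrays alone would also give single falls with a positive departure. The 2 cannot be told apart here, and this was not tested. For Cyp3a11 the single differences of −0.96 under HGF and −1.21 under IL-6 stood beside −1.26 under both, a departure of 0.91 ± 0.06 (adjusted p = 1.59e-15). Cyp2c68 departed by 0.81, Cyp2a12 by 0.80, Cyp2c38 and Cyp4b1 by 0.59, Cyp2b10 by 0.56, Cyp2d10 by 0.47 and Cyp2d9 by 0.44. The shared Cyp2a5 and Cyp2a4 probe set departed by 1.54. Cyp3a13 was the negative one (−0.32 ± 0.04, adjusted p = 9.09e-10): its rise under HGF was 0.43 and its rise under both was 0.11.

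**Figure D5:**
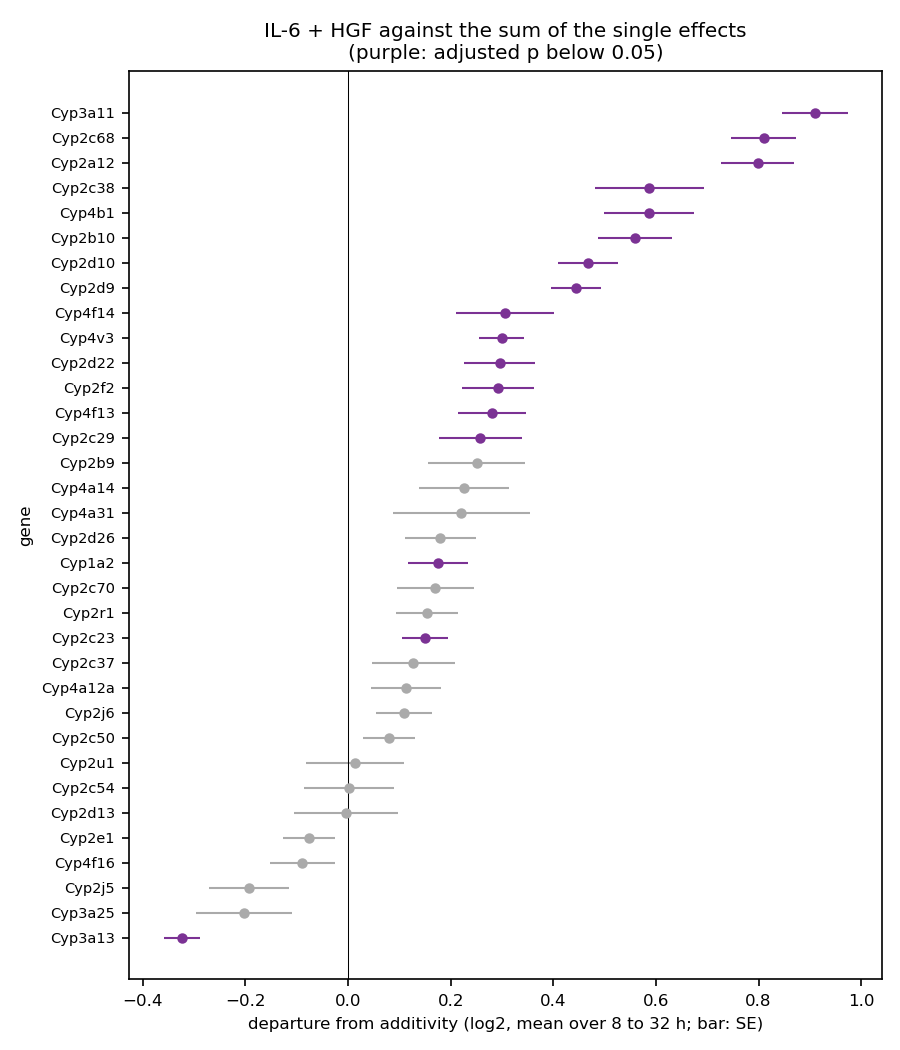
Departure from additivity (horizontal axis, log2, mean over 8 to 32 h, bars are SE of the fit) of the 34 members that were not dim; purple marks an adjusted p below 0.05. Cyp3a11 has the largest positive departure, 0.91, and Cyp3a13 the negative one, −0.32.

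Genes that regulate or serve P450 enzymes were measured on the same arrays. Of 12 regulators, 9 were lower and 1 higher under IL-6 plus HGF, 10 lower and none higher under HGF, and 7 lower and 1 higher under IL-6. Nr1i2, which encodes PXR, differed by −1.23, −0.99 and −0.65, Nr1h4, which encodes the bile acid receptor FXR, by −1.22, −0.94 and −0.67, and Hnf4a by −0.47, −0.52 and −0.16. Ahr was higher under IL-6 plus HGF (0.70) and IL-6 (0.83) and lower under HGF (−0.81), while the subfamily 1a genes were lower under all 3. Nr1i3, which encodes CAR, was dim and did not pass under any stimulus. Of 12 genes of redox supply and haem synthesis, 9, 9 and 8 were lower and 2, 2 and 1 higher. Cyb5a, the electron donor cytochrome b5, differed by −0.46, −0.23 and −0.29, and Alas1, the first enzyme of haem synthesis, by −0.36, −0.56 and 0.01. Of 9 PPARalpha targets other than P450, 8, 7 and 8 were lower and 1, 1 and none higher. Of 7 periportal genes 5 were lower and none higher under each. Of 9 pericentral genes 2, 1 and 3 were lower and 4, 3 and 2 higher. Of 5 AhR targets, 2, 1 and 2 were lower and 1 was higher under each. Among the 16 P450 genes outside families 1 to 4, 4 were lower under each stimulus, and 2, 2 and 1 were higher. Of all genes, 21.3%, 20.1% and 17.7% were lower and 21.4%, 19.7% and 14.2% higher in the same order. The count of 4 lower of 16 is near those shares, and the lists are small.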

How the data were processed

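Values for 45101 probe sets on 60 Affymetrix arrays were taken as deposited, as log2 intensities that the authors had already summarised; how they summarised and normalized them is unstated in the labels and file. Of the probe sets, 34958 had 1 gene symbol in the platform annotation, 932 had several and 9211 were not listed. Each gene was read from its probe set with the highest mean. The labels mention triplicates; each group analysed has 2 arrays, or 4 at 0 h. Whether arrays of a group come from different animals is unstated, and p-values then cover array-to-array spread only, possibly technical. Precision is limited by the number of arrays.

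The values were fitted with limma 3.58.1 in R 4.3.3, with 1 mean per group over all arrays (31 residual degrees of freedom) and a mean-variance trend. Tests were moderated t on the mean of the hourly differences at 8 to 32 h, and F over 7 hours, adjusted by Benjamini-Hochberg over 18194 genes, with a threshold of 0.05. SE are those of the fit. Differences of single hours were adjusted within the hour. The fit was tested on simulated data.

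The members and lists were chosen with earlier results of these data known. Named were, per comparison, the 10 called members with the largest difference of one sign at all 4 hours, a fixed set of P450 genes, and the 5 with the highest mean; Cyp4a10 of that set has no probe set of its own. Members outside this rule that the text names (Cyp2b9, Cyp2b13, Cyp2b19, Cyp3a16, Cyp3a44, Cyp2r1, Cyp2s1, Cyp4x1 and those with promoter matches) and the genes of the other lists were chosen after their values were seen. Arrays with the same replicate number did not deviate together (correlations from −0.22 to 0.19 in 378 group pairs), so the number was left out of the model. Alternatives were quantile normalization, other intensity filters, other hours, other variance models, the mean over probe sets, a minimum fold change, the block and leaving out each array.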

Additional observations from a re-analysis of the deposited data

Results flagged for a closer look

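The effect of IL-6 differed between cells with and without HGF for 15 of the members named in the report, by the test of the difference itself (the departure from additivity over 8 to 32 h, limma with Benjamini-Hochberg adjustment over all genes). Some of these members were named because of this same test, so the count of 15 is no support of its own. Of all 55 members 17 were called, against 15% of all genes. The limit given above for the unstimulated arrays holds here too. The departure was positive for Cyp3a11 (0.91), Cyp2c68 (0.81), Cyp2a12 (0.80), Cyp2c38 (0.59), Cyp4b1 (0.59), Cyp2b10 (0.56), Cyp2d10 (0.47), Cyp2d9 (0.44), Cyp4f14 (0.31), Cyp4v3 (0.30), Cyp2d22 (0.30), Cyp2f2 (0.29), Cyp2c29 (0.26) and Cyp1a2 (0.18), and negative for Cyp3a13 (−0.32). The call of Cyp1a2 was lost when any 1 of 12 arrays was left out, that of Cyp2c29 with any 1 of 6 and that of Cyp4f14 with any 1 of 5.

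Among the 4 unstimulated arrays at 0 h, 1 array stood apart for the dim Cyp1a1, at 4.67 against 4.95, 4.97 and 4.99, so that its gap to the nearest array was 0.883 of the whole range. Chance flags about 1 in 20 such groups, and 29 members were looked at.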

How the results depend on the processing

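Counts are of the 55 members called over 8 to 32 h. With a minimum change of 1.2-fold (treat in limma), 15 passed under IL-6 plus HGF, 14 under HGF and 11 under IL-6, 2 for IL-6 plus HGF against HGF, 4 against IL-6, 2 for IL-6 against HGF and 7 for the departure from additivity. It was not run for the F-test, and the share of all genes that passed it was not counted, so these counts have no background beside them. Of the single genes, 4 directions turned: Cyp2e1 under HGF in the mean over 0.5 to 32 h (−0.0033, adjusted p = 0.940), Cyp1b1 under IL-6 in that mean (0.15, adjusted p = 0.036) and in the F-test over 7 hours (0.49, adjusted p = 0.0132), and Cyp4b1 for IL-6 plus HGF against IL-6 in the F-test (−0.32, adjusted p = 0.0375); the early hours carry the labelling difference, and the cause was not tested. Leaving out each array gave 31 to 35 calls under IL-6 plus HGF, 30 to 33 under HGF, 26 to 30 under IL-6, 18 to 23 against HGF, 11 to 16 against IL-6, 14 to 18 for IL-6 against HGF, 14 to 20 for additivity and 33 to 36 for culture time; for the F-test the ranges were 37 to 41, 29 to 33, 33 to 36, 21 to 25, 13 to 19, 16 to 24 and 21 to 25 in the same order. The replicate number as a block gave 34, 32 and 28 calls under IL-6 plus HGF, HGF and IL-6; over the mean differences and culture time it changed the call of 1 member, Cyp2c54 under IL-6 (−0.16, adjusted p = 0.0525 with the block and 0.0455 without it); the labels do not tie same-numbered arrays to an animal. Calls lost when some single array was left out were those of Cyp2c23, Cyp2g1, Cyp2j9, Cyp2u1 and Cyp4f18 under IL-6 plus HGF, Cyp1a1, Cyp2d12, Cyp2e1 and Cyp4a14 under HGF, Cyp2c54, Cyp2e1 and Cyp4a31 under IL-6, Cyp2d10 and Cyp4a14 against HGF, Cyp2d26, Cyp3a25 and Cyp4f16 against IL-6, and Cyp1a1, Cyp2c23, Cyp2c29 and Cyp4f15 for IL-6 against HGF, and Cyp1a1, Cyp2c39, Cyp2c55, Cyp3a44 and Cyp4f39 for culture time; for additivity they were Cyp1a2, Cyp2c23, Cyp2c29 and Cyp4f14. Quantile normalization moved the median of all genes by under 0.01. Dim members limit what can be read from 21 of the 55 genes.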
